A study of Rattus norvegicus and Mus musculus and Macaca mulatta with 84 samples.

Results

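Liver miRNA was compared between UCD-T2DM rats with 2 weeks of diabetes and prediabetic rats of the same strain. The libraries were chosen by the column names of the deposited table, which give 6 libraries at 2 weeks and 3 prediabetic libraries, 9 of the 84 samples of the series. The same table holds 3 libraries from UCD-T2DM rats with 3 months of diabetes, which share the estimate of spread and whose levels are given beside some results. All 3 groups are liver small RNA from UCD-T2DM rats, with no transgene, deletion or drug named in the labels. Each column name carries a different animal number. The labels used here give neither age nor sex. The series as a whole asks how small RNA differs between models of diabetes and what follows when miR-29 is blocked.

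The UCD-T2DM rat was bred at the University of California, Davis, from obese Sprague Dawley rats and lean Zucker diabetic fatty rats. It keeps a working leptin receptor, becomes obese and insulin resistant as an adult, and then develops high blood glucose, so animals can be sampled before onset and at set times after it. A miRNA is a short RNA that guides Argonaute to messenger RNAs. Pairing is led by the seed, which is bases 2 to 8 from its 5′ end, so miRNAs with the same seed can share targets. In liver, miR-122 of hepatocytes outweighs all other miRNAs. The miR-29 family targets collagens and other matrix genes, and the miR-17-92 cluster is known for its part in cell growth.

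The sequences that the results turn on are shown with their seeds in capitals, grouped by seed so that relatives can be compared. They come from RefSeq (assembly GRCr8), which held 189 of the 210 mature arms tested. miR-375-3p had the lowest p-values, and its seed is shared with no other tested arm that had a sequence:
miR-375-3p: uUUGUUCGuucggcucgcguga
The miR-23 pair, encoded at separate loci, shares a seed:
miR-23a-3p: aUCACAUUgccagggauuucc
miR-23b-3p: aUCACAUUgccagggauuacc
The miR-193 pair was near the filter on low values for its first member:
miR-193a-3p: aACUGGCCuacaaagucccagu
miR-193b-3p: aACUGGCCcacaaaguccc
The miR-19 pair and the miR-17 and miR-20a pair belong to the miR-17-92 cluster, and miR-130a-3p has a seed that overlaps that of miR-19:
miR-19a-3p: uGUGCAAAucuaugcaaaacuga
miR-19b-3p: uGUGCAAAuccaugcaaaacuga
miR-130a-3p: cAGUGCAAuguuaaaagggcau
miR-17-5p: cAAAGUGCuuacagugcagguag
miR-20a-5p: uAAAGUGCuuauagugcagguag
The miR-101 pair was the most abundant of these seed groups:
miR-101a-3p: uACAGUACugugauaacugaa
miR-101b-3p: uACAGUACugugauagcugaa
The miR-29 family is the subject of the series:
miR-29a-3p: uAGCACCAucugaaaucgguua
miR-29b-3p: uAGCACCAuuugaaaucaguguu
miR-29c-3p: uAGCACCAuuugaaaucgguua

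No miRNA form was called different between 2 weeks of diabetes and prediabetes. The table lists forms, which are the canonical mature sequence of each arm and forms marked with a signed offset, once per locus, in reads per 1000000 mapped to miRNAs (RPM). Of 1076 forms, 435 reached a mean of 10 RPM over the 12 libraries and were tested with limma on log2(RPM + 1), and 0 (0%) had a Benjamini-Hochberg adjusted p under 0.05. The smallest adjusted p from limma was 0.139, for the form of miR-375-3p marked -1. At an unadjusted p under 0.05 there were 44 forms (10.1%), of which 43 (9.89%) were lower at 2 weeks and 1 (0.23%) was higher. The 43 lower forms belonged to 29 mature arms and differed by -0.17 to -1.28 on the log2 scale.

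Counted animal by animal, every 2-week library lay below every prediabetic library for 19 forms (4.37%) and above for 2 forms (0.46%), which makes 21 (4.83%) whose groups did not overlap. The 2 higher forms were those of miR-15b-5p and miR-221-3p marked +1. The split depended on the scaling: after the median-of-ratios rescaling described further on, 10 forms lay wholly lower and 7 wholly higher. The count of forms at an unadjusted p under 0.05 depended on single animals. The 44 forms became 20 without prediabetic replicate 2 and 24 without 2-week replicate 1, and 70 or 80 without 2-week replicate 4 or 6. The number of forms without overlap can only stay or rise when a library is left out, since fewer libraries overlap less. The 21 forms became 59, 32 or 41 without prediabetic replicate 1, 2 or 3, and 37 or 38 without 2-week replicate 4 or 6.

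The comparison could bound most differences even though none was called. For 418 of the 435 forms (96.1%) the 95% interval of the difference lay inside -1 to 1 on the log2 scale, that is within 2-fold, and the median standard error was 0.13. Among the 55 forms that averaged 1000 RPM or more over the 9 libraries, 45 had an interval inside -0.5 to 0.5. The estimates of those 55 ran from -0.36 to 0.14. In the plot of differences against level, the 118 forms above 0 and the 317 below 0 form a flat band that lies slightly under the zero line.

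**Figure D1:**
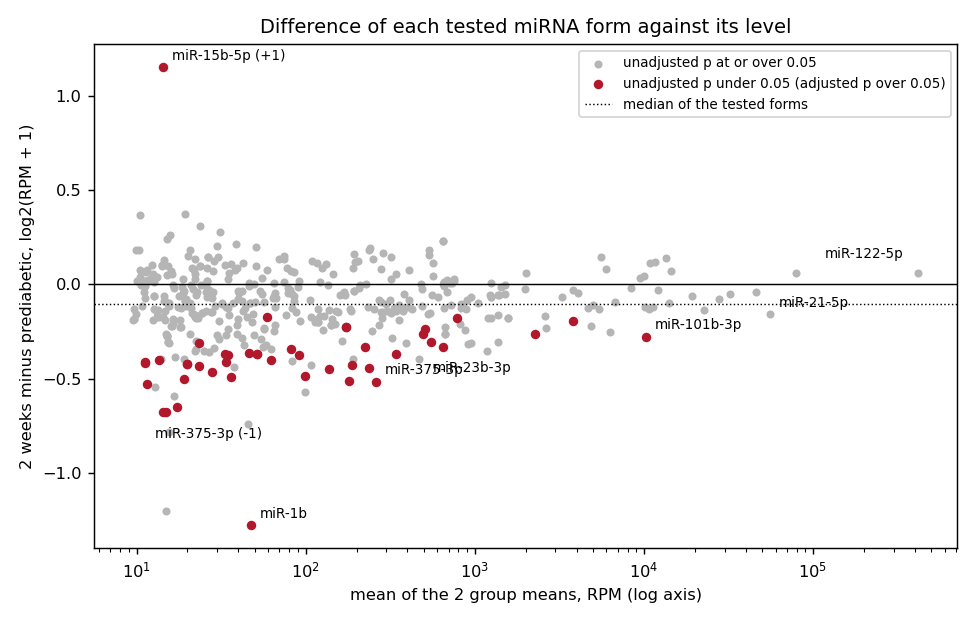
Each point is a tested miRNA form, with its mean level in RPM on a log axis and its difference at 2 weeks against prediabetes on the log2(RPM + 1) scale. Red points have an unadjusted p under 0.05, 43 of them below 0 and 1 above, and the dotted line is the median of all forms at -0.10.

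The shift towards lower values depended on the scaling. The values of a library sum to 1000000, so a larger share of 1 miRNA leaves less for the rest. miR-122-5p, the hepatocyte miRNA, held 42.62%, 40.01% and 40.13% of the reads in the prediabetic libraries, and between 39.0% and 46.2% at 2 weeks, with a median of 43.1%. Its mean share was 42.8% ± 3.18 (SD, n = 6) against 40.9% ± 1.47 (SD, n = 3), a difference within the spread (exact permutation p = 0.393, two-sided, adjusted p = 0.471 over 12 single values tested this way). With single libraries left out, the difference of 1.89 percentage points ran from 1.22 without 2-week replicate 5 to 2.74 without prediabetic replicate 1. The groups overlapped, and 2-week replicates 3 and 5 had the highest shares. The smallest p that 6 against 3 libraries allow is 0.0119.

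The median difference of all tested forms was -0.10 as deposited, -0.04 per 1000000 reads other than miR-122-5p, and 0.00 after median-of-ratios rescaling. Rescaling split the forms at an unadjusted p under 0.05 into 22 lower and 11 higher, in place of 43 and 1, and values without miR-122-5p into 38 and 5. All 43 lower forms stayed below 0 after rescaling, but their selection left little room for another outcome. The form nearest to 0 among them was at -0.17, and rescaling moved the median of all forms only from -0.10 to 0.00. Of the 43, 22 kept an unadjusted p under 0.05. Differences are to be read against the shift of -0.10.

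Libraries also differed with the base composition of the miRNAs. Of the arms with a RefSeq sequence, the 44 with under 40% GC had a median difference of -0.22, the 77 with 40 to 50% GC a median of -0.12, and the 68 with 50% GC or more a median of -0.03. Below 0 lay 40 of 44, 64 of 77 and 36 of 68. Within a library, the median deviation of GC-poor arms minus that of GC-rich arms was 0.06, 0.08 and 0.26 in prediabetes. At 2 weeks it was -0.43 in replicate 5, between -0.17 and -0.13 in replicates 1, 2 and 3, and 0.10 and 0.24 in replicates 4 and 6. The groups overlapped in this measure (exact permutation p = 0.202, n = 6 and 3, adjusted p = 0.471 over the same 12 values), and its part in the differences between forms was not tested.

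**Figure D2:**
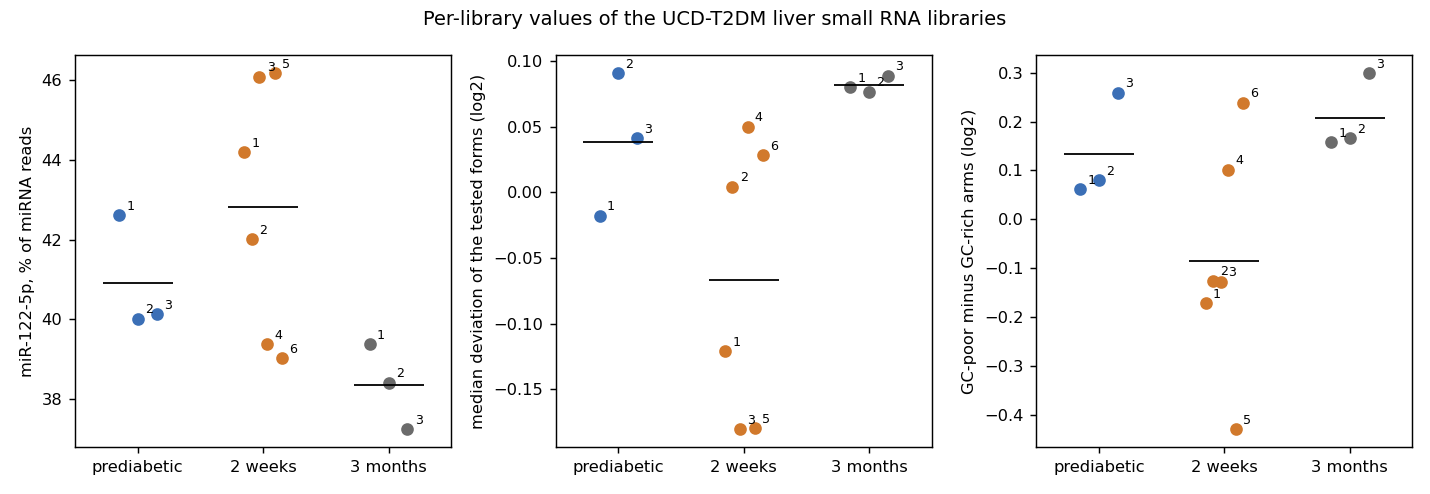
Each point is a library, numbered by replicate, and lines are group means, with the miR-122-5p share in percent, the median deviation of the tested forms (log2) and the GC-poor minus GC-rich difference (log2). 2-week replicates 1, 3 and 5 have the highest miR-122-5p shares and the lowest medians, and 2-week replicates 4 and 6 lie among or near the prediabetic and 3-month libraries.

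Among the 2-week animals, replicate 5 stood lowest. It had the lowest value of the 9 libraries for 152 of the 435 forms and for 23 of the 43 forms lower at an unadjusted p under 0.05. Without it, 31 forms had such a p, 30 of them lower. On the first principal component, which held 37.6% of the variance, 2-week replicates 5, 1 and 3 lay at -5.72, -4.45 and -3.22. Prediabetic replicates 2 and 3 lay at 4.15 and 3.89, and prediabetic replicate 1 at 0.06. Between these lay 2-week replicates 4, 6 and 2 at 2.90, 2.06 and 0.32, so the groups overlapped. 2-week replicate 6 stood alone on the second component (25.9%) at 6.42. The column names of all 12 libraries give lane 3, with sample numbers 21 to 23 for prediabetes and 27 to 32 for 2 weeks, and name no batch.

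miR-375-3p, an miRNA best known for restraining insulin secretion in pancreatic islets and also made by other epithelia, had the lowest p-values of all. The canonical form measured 315, 353 and 248 RPM in the prediabetic livers, and from 172 to 238 RPM with a median of 220 RPM at 2 weeks. Every 2-week library lay below every prediabetic one, with 238 RPM the highest value at 2 weeks and 248 RPM the lowest in prediabetes. Means were 213 ± 27.4 RPM (SD, n = 6) and 305 ± 53.6 RPM (SD, n = 3), a difference of -0.52 (SE 0.13, 95% interval -0.80 to -0.23) with a limma adjusted p of 0.366.

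Its offset forms gave like estimates. The form marked -1 was at 19.97, 19.10 and 16.33 RPM in prediabetes and at 9.37 to 13.7 RPM at 2 weeks, a difference of -0.68 (SE 0.14, limma adjusted p = 0.139). The form marked +1 differed by -0.47, and its groups overlapped. After rescaling, the canonical form differed by -0.41. At 3 months it stood at 392 to 480 RPM, above all 9 libraries, and the difference from 2 weeks was 1.03 with a limma adjusted p of 0.00123, in a comparison that shares the 2-week libraries and in which 109 forms (25.1%) were called.

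Of the other miRNAs in the pancreatic list, miR-216b, miR-217 and miR-184 were at 0 in all 3 prediabetic libraries. At 2 weeks they reached at most 1.14, 3.41 and 10.1 RPM. miR-7a, made by islets and by many other tissues, summed to 777 to 896 RPM in prediabetes and 702 to 898 RPM at 2 weeks. This sum adds all loci, which can hold the same reads. With loci averaged, miR-7a-5p had means of 399 RPM in prediabetes and 362 RPM at 2 weeks.

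Of 16 pairs of arms with a shared seed, 10 had both members below 0 and 2 had both above, where 155 of 210 single arms were below 0. The pair of miR-23a-3p and miR-23b-3p differed by similar amounts. miR-23a-3p, which comes from a cluster with miR-27a and miR-24-2, measured 205, 239 and 201 RPM in prediabetes and 127 to 195 RPM at 2 weeks with a median of 168 RPM. miR-23b-3p was at 728, 730 and 711 RPM in prediabetes and 468 to 699 RPM at 2 weeks with a median of 572 RPM. Neither pair of groups overlapped, and 2-week replicate 5 was the lowest for both. The differences were -0.43 (SE 0.13) and -0.33 (SE 0.11), each with a limma adjusted p of 0.366. At 3 months the levels were 236 ± 21.1 RPM and 807 ± 43.1 RPM (SD, n = 3).

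The estimates of miRNAs encoded beside these lay nearer to 0. miR-23a-3p and miR-23b-3p were named for their low p, and the gaps to their neighbours were not tested. miR-27a-3p, with all its forms summed, differed by -0.17 (95% interval -0.50 to 0.16). miR-24-3p, which has entries for the loci mir-24-1 and mir-24-2, differed by -0.06 (-0.23 to 0.10). miR-27b-3p, an miRNA studied for its part in lipid metabolism and encoded beside miR-23b, was at 3802, 4416 and 3930 RPM against 3138 to 4089 RPM, and differed by -0.20 (SE 0.09, limma adjusted p = 0.436). Its groups overlapped. At 3 months it measured 5360 ± 108 RPM (SD, n = 3).

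miR-130a-3p and miR-301a-3p, relatives that are studied in fibrosis and growth, followed the same direction. The miR-130a-3p form marked +1 was at 34.8, 41.2 and 36.7 RPM in prediabetes and at 24.9 to 32.7 RPM at 2 weeks with a median of 28.9 RPM. miR-301a-3p was at 70.5, 73.1 and 68.1 RPM in prediabetes and at 43.4 to 63.4 RPM at 2 weeks with a median of 53.4 RPM. In both cases the groups did not overlap. The differences were -0.37 (SE 0.11) and -0.40 (SE 0.13), each with a limma adjusted p of 0.366. For the canonical miR-130a-3p, at 608 ± 79.1 and 493 ± 63.0 RPM (SD, n = 3 and 6), the groups overlapped.

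The miR-193 pair and miR-365-3p are studied in fat cell differentiation. miR-193b-3p measured 40.3, 41.3 and 44.6 RPM in prediabetes, and 23.3 to 36.7 RPM with a median of 30.2 RPM at 2 weeks. The difference was -0.49 (SE 0.16, limma adjusted p = 0.366), and the groups did not overlap. miR-365-3p, which was chosen here after its values were seen, was at 20.97, 21.61 and 20.90 RPM against 8.50 to 19.1 RPM, a difference of -0.65 (SE 0.20, limma adjusted p = 0.366). miR-193a-3p was low in all libraries, at 13.6 ± 1.61 and 9.46 ± 2.68 RPM (SD, n = 3 and 6).

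Estimates for the miR-17-92 cluster and its paralogs ranged by member, and gaps between members were not tested. miR-20a-5p was at 558, 564 and 532 RPM in prediabetes and at 431 to 512 RPM at 2 weeks with a median of 467 RPM, so the groups did not overlap. The difference was -0.24 (SE 0.08, 95% interval -0.40 to -0.08, limma adjusted p = 0.366), and -0.13 after rescaling. miR-20a-5p was named for its low p. miR-19a-3p was at 160, 153 and 156 RPM against 78.2 to 154 RPM with a median of 118 RPM, a difference of -0.45 (SE 0.18, limma adjusted p = 0.409). Here 2-week replicate 6 reached the prediabetic range and replicate 5 was lowest.

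The estimates of other members ran from -0.31 to 0.09, with all forms of an arm summed. miR-19b-3p, which shares the miR-19a seed, differed by -0.31 (95% interval -0.66 to 0.03). Of those with the miR-20a seed, miR-106b-5p differed by -0.18 (-0.45 to 0.09), miR-17-5p by -0.12 (-0.33 to 0.08) and miR-93-5p by 0.01 (-0.17 to 0.19). miR-92a-3p, with another seed, differed by 0.09 (-0.16 to 0.33). In the list of this cluster and its paralogs, 27 forms were tested. At an unadjusted p under 0.05, 3 were lower, a share near the 9.89% of all forms, and 0 were higher. By limma 0 were called, and their median was -0.12 beside -0.10 for all forms. Of the 5 arms counted for the miR-17-92 hairpins, 5 were below 0, with a median of -0.24, where 155 of 210 single arms were below 0. An unadjusted p under 0.05 was found for 3 of the 5, miR-18a-5p (-0.36), miR-19a-3p and miR-20a-5p, beside 14.8% of all arms. These 5 leave out miR-17-5p, miR-19b-3p and miR-92a-3p.

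miR-101, which targets the histone methyltransferase EZH2, was the most abundant of the seed groups whose sequences are shown above. miR-101b-3p, chosen here after its values were seen, measured 11139, 11579 and 10871 RPM in prediabetes, and 7026 to 10771 RPM with a median of 9480 RPM at 2 weeks. The groups came close without overlapping. The difference was -0.28 (SE 0.11, limma adjusted p = 0.409), and -0.17 after rescaling. miR-101a-3p stood at 1321 ± 58.1 and 1055 ± 238 RPM (SD, n = 3 and 6) with overlapping groups.

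**Figure D3:**
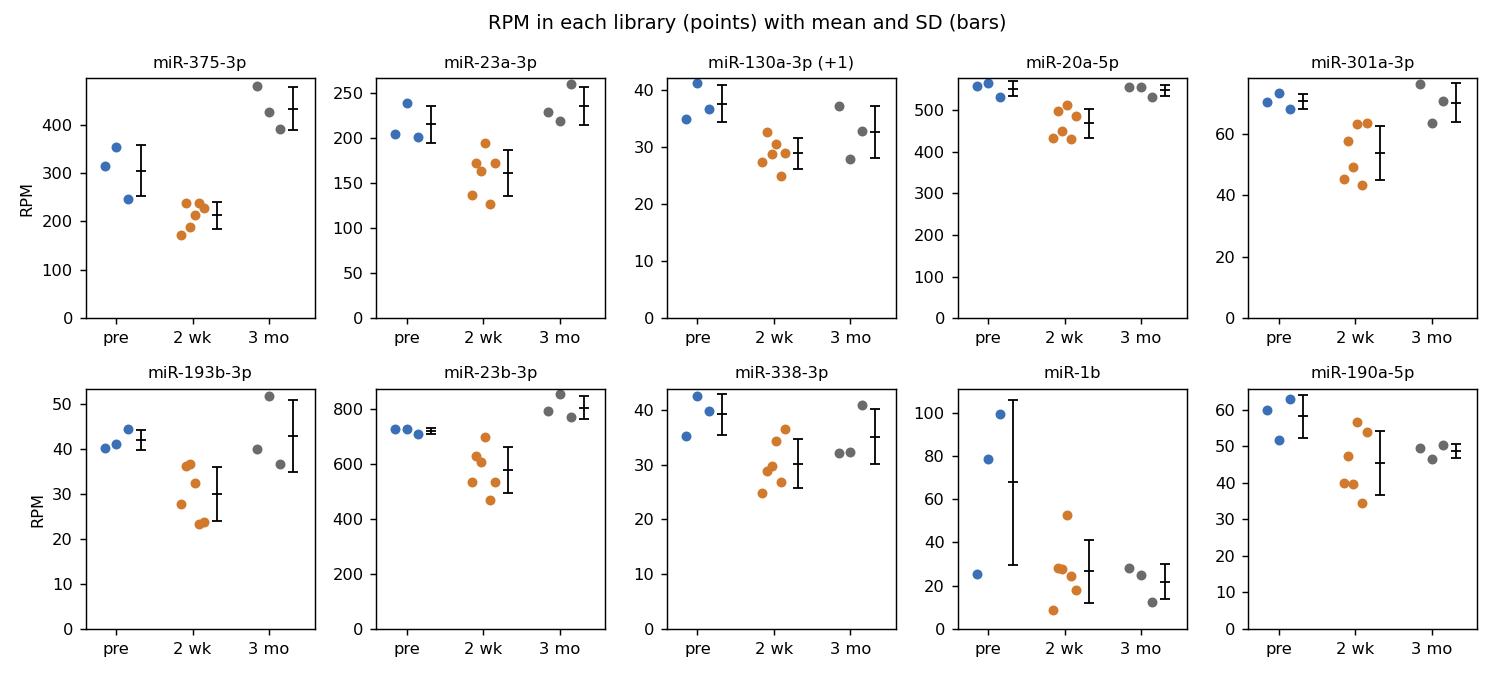
Points are RPM in each library for the 10 forms that the naming rule takes as lower at 2 weeks, with the mean and SD as bars, in prediabetes (pre, n = 3), at 2 weeks (2 wk, n = 6) and at 3 months (3 mo, n = 3). The 2-week libraries lie below all prediabetic ones in 7 panels and overlap for miR-338-3p, miR-1b and miR-190a-5p.

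Of those 3 overlapping forms, miR-1b had the largest difference and the widest spread. miR-1b and miR-1-3p are made by skeletal and heart muscle. miR-1b was at 25.3, 78.8 and 99.3 RPM in prediabetes and at 8.97 to 52.8 RPM with a median of 26.1 RPM at 2 weeks, a difference of -1.28 (SE 0.49, 95% interval -2.33 to -0.23, limma adjusted p = 0.409). Prediabetic replicate 1 lay inside the 2-week range. miR-1-3p was at 5.99, 7.64 and 54.0 RPM against 1.44 to 23.8 RPM. Other muscle miRNAs were low or overlapped. miR-133a summed to 6.50 to 23.8 RPM in prediabetes and 1.29 to 16.2 RPM at 2 weeks, miR-206 reached at most 5.93 RPM, and miR-499-5p was at 48.3 ± 8.14 and 38.6 ± 7.32 RPM (SD, n = 3 and 6). Their part in the miR-1b difference was not tested.

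miR-338-3p measured 39.2 ± 3.73 and 30.2 ± 4.44 RPM, and miR-190a-5p 58.3 ± 5.94 and 45.3 ± 8.77 RPM (SD, n = 3 and 6). Each differed by -0.37 with a limma adjusted p of 0.409. miR-190b-5p, which shares the seed of miR-190a-5p, differed by 0.07 with a wide 95% interval of -0.82 to 0.97. Inside the prediabetic range lay 2-week replicate 6 for miR-338-3p, and 2-week replicates 4 and 6 for miR-190a-5p.

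**Figure D4:**
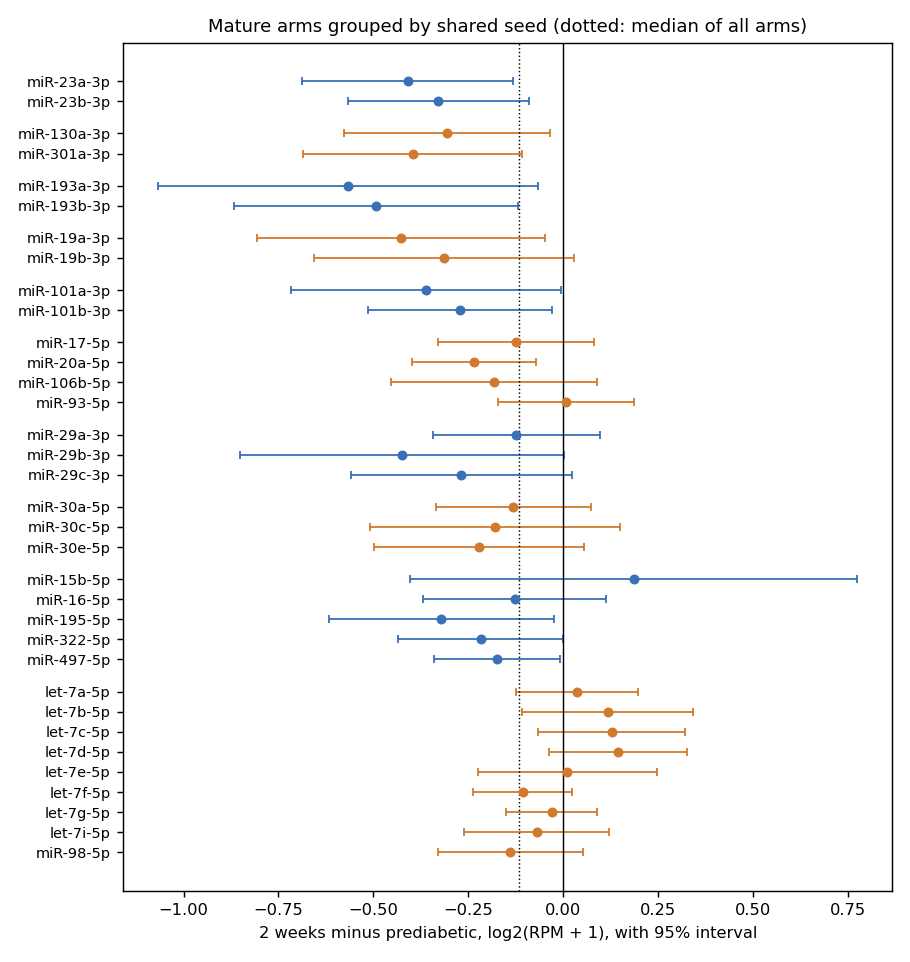
Points are the differences at 2 weeks against prediabetes on the log2(RPM + 1) scale for mature arms with all forms summed, grouped by seed, with 95% intervals from limma. The dotted line is the median of all 210 arms at -0.12. Intervals of the miR-23, miR-193 and miR-101 pairs lie below 0, and those of the let-7 members span 0.

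With the forms of each arm summed, the results were alike. Of 210 arms, 31 (14.8%) were lower at an unadjusted p under 0.05, 0 were higher and 0 were called by limma, and the groups did not overlap for 14 (6.67%), all lower. Forms of the same arm moved closely together. Over 182 pairs of an offset form and its canonical form, the median absolute gap between their differences was 0.04, and 175 pairs lay within 0.2. Offset forms held 11.8% ± 0.422 of the reads at 2 weeks and 11.7% ± 0.403 in prediabetes (SD, n = 6 and 3, exact permutation p = 0.810). The 5p and 3p arms of the same hairpin were less alike: over 57 pairs the median gap was 0.16, and 36 lay within 0.2. The arms of let-7d parted. let-7d-5p was at 5268 ± 85.0 and 5845 ± 590 RPM (0.14), and let-7d-3p at 272 ± 23.2 and 204 ± 50.5 RPM (-0.44, SD, n = 3 and 6).

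The miR-29 family was slightly below prediabetic levels at 2 weeks, within the spread between animals. The total of the 3 canonical 3p members, with loci of the same sequence averaged, was 4655, 6250 and 6008 RPM in prediabetes. At 2 weeks it ran from 4492 to 5668 RPM with a median of 5052 RPM. Prediabetic replicate 1 lay inside the 2-week range. The means were 5093 ± 512 RPM (SD, n = 6) and 5638 ± 860 RPM (SD, n = 3), a difference of -0.14 on the log2 scale (exact permutation p = 0.262, adjusted p = 0.471 over the 12 values). After rescaling it was -0.03. It was -0.27 without prediabetic replicate 1 (exact permutation p = 0.0714, smallest possible 0.0357), -0.06 without prediabetic replicate 2 and -0.09 without prediabetic replicate 3.

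The 3 members kept their order of abundance in every library. miR-29a-3p measured 4467 ± 431 and 4885 ± 739 RPM, a difference of -0.12 (95% interval -0.34 to 0.10). miR-29c-3p measured 609 ± 92.2 and 731 ± 115 RPM, a difference of -0.26 (-0.55 to 0.02, exact permutation p = 0.131, n = 6 and 3). miR-29b-3p was the rarest, at 16.5 ± 3.66 and 22.5 ± 5.84 RPM with an exact permutation p of 0.131 (SD, n = 6 and 3). Its groups overlapped through prediabetic replicate 1. At 3 months the miR-29b-3p locus listed as mir-29b-2 was at 39.1 ± 2.85 RPM (SD, n = 3), above all 9 libraries, which measured 12.3 to 26.5 RPM. All 13 tested forms of the family were below 0, with a median of -0.26 (-0.16 after rescaling) beside -0.10 (0.00) for all forms. They come from 5 mature arms and are not independent, as loci of the same sequence can hold the same reads. Over all forms 72.9% lay below 0. An unadjusted p under 0.05 was found for 2 of the 13, both loci of miR-29b-3p, where 9.89% of all forms were lower at that p, and 0 were called by limma.

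The most abundant miRNAs of liver were at like levels in both groups. miR-21-5p, the second most abundant, is induced by inflammation and injury. It was at 55397, 55173 and 63229 RPM in prediabetes and at 38546 to 77293 RPM with a median of 48210 RPM at 2 weeks, a difference of -0.16 (SE 0.17). Replicate 6 alone among the 2-week animals exceeded the prediabetic range. At 3 months the level was 79029 ± 10086 RPM (SD, n = 3). The hepatocyte miRNAs miR-192-5p and miR-148a-3p differed by -0.08 (95% interval -0.33 to 0.18) and -0.06 (-0.37 to 0.25), and both were lowest in 2-week replicate 5.

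Others were bound more tightly. miR-22-3p differed by -0.04 (95% interval -0.20 to 0.13), miR-26a-5p by -0.05 (-0.20 to 0.10), miR-26b-5p by -0.14 (-0.30 to 0.02) and miR-30a-5p by -0.13 (-0.33 to 0.07). For let-7f-5p and let-7g-5p the differences were -0.12 (-0.25 to 0.02) and -0.03 (-0.15 to 0.09). miR-378a-3p, which is encoded within Ppargc1b, a regulator of mitochondrial genes, differed by 0.07 (-0.09 to 0.24). None was called by limma. The small negative values of miR-22-3p, miR-26a-5p, miR-192-5p, miR-148a-3p and let-7g-5p turned positive after rescaling.

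At 20 RPM or more, the forms higher at 2 weeks with the lowest p differed by 0.14 to 0.31. miR-378a-5p, from the same hairpin as miR-378a-3p, measured 442, 551 and 523 RPM in prediabetes and 506 to 647 RPM with a median of 580 RPM at 2 weeks (0.18, SE 0.10, limma adjusted p = 0.436). miR-34c-5p, a relative of the p53-induced miR-34a, was at 22.6, 30.6 and 31.2 RPM against 26.4 to 40.6 RPM (0.28, SE 0.15, limma adjusted p = 0.436). Both had overlapping groups. After rescaling they differed by 0.29 and 0.38, with unadjusted limma p-values of 0.0175 and 0.0104. The limma adjusted p after rescaling was 0.553 for each. Without prediabetic replicate 1, the lowest prediabetic library for both, they differed by 0.09 and 0.13. let-7c-5p, miR-139-3p, miR-181a-5p, miR-339-5p, miR-423-3p and the miR-122-5p form marked +3 differed by 0.14 to 0.23, with limma adjusted p-values from 0.468 to 0.501. Rescaling brought miR-423-3p to 0.30.

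The 2 forms whose 2-week values all lay above prediabetes differed in kind. The miR-221-3p form marked +1 measured 19.9, 21.5 and 21.6 RPM in prediabetes and 22.3 to 30.7 RPM at 2 weeks, a difference of 0.31 (SE 0.19, limma adjusted p = 0.492). At 3 months it stood at 36.7, 50.7 and 82.8 RPM. Canonical miR-221-3p differed by 0.16, with overlapping groups. With all forms summed, miR-221-3p averaged 527 RPM in prediabetes and 589 RPM at 2 weeks. The miR-15b-5p form marked +1, which was chosen here after its values were seen, was at 7.99, 6.78 and 5.88 RPM in prediabetes. At 2 weeks 4 libraries held 8.68 to 11.3 RPM, and replicates 3 and 6 held 42.8 and 47.6 RPM. The difference was 1.16 (SE 0.51, 95% interval 0.06 to 2.25, limma adjusted p = 0.436). Canonical miR-15b-5p was also highest in replicates 3 and 6, at 363 and 447 RPM, while the other 2-week libraries held 180 to 238 RPM.

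Lists of miRNAs known from cell types and pathways were described by counts and medians, with 0 forms called by limma in each. Bulk liver cannot tell fewer cells of a type from less RNA per cell. The 29 hepatocyte-enriched forms had a median of -0.03, the 69 forms of metabolic regulators -0.14, and the 41 forms of let-7 and miR-98 -0.03. The 18 p53-responsive forms had a median of -0.06, and the 9 pancreatic and endocrine forms -0.15, 3 of them the forms of miR-375-3p. For the 2 muscle forms tested, miR-1-3p and miR-499-5p, it was -0.76. An unadjusted p under 0.05 was found for miR-145-5p and miR-27b-3p among metabolic regulators, for 2 forms of let-7d-3p in the let-7 list, and for 0 hepatocyte-enriched or p53-responsive forms. These counts lie below the 9.89% of all forms that were lower at that p. The hepatocyte list defines the tissue: its summed level was 547453 to 576832 RPM in prediabetes and 539632 to 610888 RPM at 2 weeks.

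Stellate cell and bile duct miRNAs had the lowest medians among lists with over 2 tested forms. The 17 stellate cell and fibroblast forms had a median of -0.35 (-0.25 after rescaling), with 16 below 0. An unadjusted p under 0.05 was found for 1 of the 17, a share below the 9.89% of all forms that were lower at that p. Their summed level was 7877 to 12075 RPM in prediabetes and 6483 to 9205 RPM at 2 weeks, so the groups overlapped. The prediabetic mean of 9398 RPM lay nearer to the lowest prediabetic library than to the highest. miR-145-5p, a smooth muscle miRNA, was at 175, 263 and 194 RPM against 100 to 201 RPM with a median of 139 RPM (-0.51, SE 0.20, limma adjusted p = 0.409). Only prediabetic replicate 2 lay above its 2-week range. miR-199a-3p was at 532 ± 140 and 399 ± 65.4 RPM (SD, n = 3 and 6). All 7 families of the list were found.

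Bile duct forms, 11 in number, had a median of -0.29 (-0.19 after rescaling), and all lay below 0, as did 72.9% of all forms. The list holds miR-31a, entered under that name once the table's names were read, which carried most of its reads. Without it the 7 forms had a median of -0.31, and their summed level was 579 to 1556 RPM in prediabetes and 379 to 864 RPM at 2 weeks. Prediabetic replicate 2 stood apart from the rest here and held 50.04 RPM of miR-141-3p and 277 RPM of miR-200c-3p. The other 8 libraries held 5.80 to 12.2 RPM and 41.9 to 86.7 RPM. The same library was highest for miR-200a-3p, at 712 RPM against 200 to 450 RPM in the other 8. miR-31a-3p, from the same list, was at 17.5 ± 2.40 and 11.2 ± 4.11 RPM (SD, n = 3 and 6), a difference of -0.68 (SE 0.27, limma adjusted p = 0.409).

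The 6 forms of endothelial miR-126a had a median of -0.18 (-0.07 after rescaling), and all 6 lay below 0, as did 72.9% of all forms. An unadjusted p under 0.05 was found for 0 of the 6. miR-126a-3p measured 1314 ± 77.1 and 1165 ± 105 RPM, and miR-126a-5p 2836 ± 235 and 2433 ± 384 RPM (SD, n = 3 and 6), with overlapping groups. The 22 blood cell forms had a median of -0.09. miR-155-5p of activated lymphocytes and macrophages was at 108, 103 and 97.2 RPM against 60.6 to 108 RPM with a median of 78.0 RPM (-0.37, SE 0.15, limma adjusted p = 0.409). Red cell miR-451-5p measured 27.6 ± 11.6 and 29.8 ± 9.36 RPM (SD, n = 3 and 6). Of 33 listed families of the Dlk1-Dio3 imprinted cluster 9 have an entry in the table, 0 of their forms reached the filter, and their summed level was at most 7.25 RPM.

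**Figure D5:**
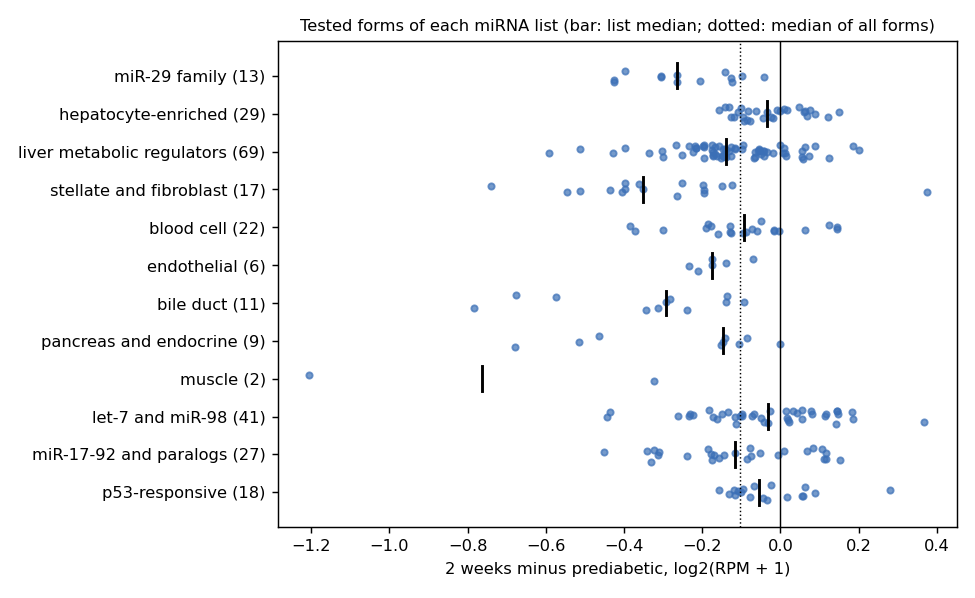
Points are the tested forms of each list, with their difference at 2 weeks against prediabetes on the log2(RPM + 1) scale, bars are list medians and numbers are forms tested. The dotted line is the median of all 435 forms at -0.10, and the stellate and bile duct medians lie at -0.35 and -0.29.

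Among the 2-week animals, replicate 6 stood apart for several miRNAs. The median SD of log2 values over tested forms was 0.20 at 2 weeks and 0.13 in prediabetes, from 6 and 3 libraries. 2-week replicate 6 had the highest miR-223-3p of neutrophils, at 110 RPM against 28.6 to 59.3 RPM in the other 8 libraries. It was also highest for miR-146b-5p, at 250 RPM against 96.1 to 169 RPM, and for miR-34a-5p, at 2995 RPM against 1162 to 2398 RPM. It was lowest for miR-455-3p, at 46.4 RPM against 78.3 to 116 RPM, and for miR-200b-3p, at 48.9 RPM against 69.1 to 195 RPM. Without it, 80 forms had an unadjusted p under 0.05 and 0 were called by limma, with a smallest adjusted p of 0.165.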

How the data were processed

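Small RNA libraries of liver (TriLink CleanTag kit, per the labels) were used as the authors deposited them, in RPM, reads per 1000000 mapped to miRNAs, with 1 row per form and locus. Each library sums to 1000000, so depth is unknown and whole reads could not be recovered. The submitters' processing notes name STAR, Salmon, DESeq2 and the builds rn6, mm9, mm10 and hg19. The sources used here give neither their roles nor what an offset counts. Loci of the same mature sequence can hold the same reads. Summed levels of families and lists add all loci, so such reads can count more than once. The miR-29 total and the arms with forms summed average the loci instead.

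limma 3.58.1 (R 4.3.3) was fitted with a variance trend to log2(RPM + 1) of all 12 UCD-T2DM libraries for forms averaging 10 RPM or more, and the contrast was 2 weeks minus prediabetic, two-sided, with Benjamini-Hochberg adjustment. A pseudocount of 1 understates differences of low forms. The script was tested on simulated data. Single values were compared by exact permutation over libraries. The p-values set a difference against the spread between animals, which limma estimates from all 12 libraries with a trend over forms.

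The comparison, the 13 miRNA lists and the naming rule were chosen with earlier results of these data known. Named were the 12 most abundant canonical miRNAs, the 10 forms per direction with the lowest p among those with at least 20 RPM (1 per arm), the miR-29 members, and up to 3 members per list and direction at an unadjusted p under 0.05, or the 2 most abundant. All sample columns of the table were mapped.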

Additional observations from a re-analysis of the deposited data

Results flagged for a closer look

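Of 49 values tested for a library that stands apart from its group of 6, 2 had one at 2 weeks, and chance flags about 1 in 20 such groups. Canonical miR-181a-5p was at 950.13 RPM in 2-week replicate 5, and the next highest 2-week library held 713.1 RPM. miR-1-3p, a muscle miRNA, was at 23.84 RPM in 2-week replicate 4, and the next highest 2-week library held 5.6 RPM.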

How the results depend on the processing

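Under every alternative run, limma called 0 forms, with smallest adjusted p-values from 0.0561 (without 2-week replicate 5) to 0.806 (without prediabetic replicate 2). The 44 forms at an unadjusted p under 0.05 became 83 of 1076 with no filter and 17 of 181 with a mean of at least 100 RPM, and ran from 20 to 80 with single libraries left out. The 21 forms without overlap became 7 with a mean of at least 100 RPM and ran from 21 to 59 with single libraries left out, as fewer libraries overlap less. The 418 intervals inside -1 to 1 became 818 of 1076, 179 of 181, and 195 of 210 with forms of an arm summed. The gap in the share of offset forms, 0.10 percentage points, ran from -0.0533 (without prediabetic replicate 2) to 0.33.

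Of 902 alternative values of the 46 named forms, 0 were called and 11 changed sign. These were miR-22-3p (0.0693 rescaled, 0.0298 without miR-122-5p), miR-26a-5p (0.0576, 0.0181), miR-192-5p (0.0293 rescaled), miR-148a-3p (0.0437, 0.00418) and let-7g-5p (0.0759, 0.0365). With single libraries left out, miR-22-3p ran from -0.0908 to 0.00377, the latter without prediabetic replicate 2, and miR-148a-3p from -0.131 to 0.0180, the latter without 2-week replicate 5. As deposited, each of these miRNAs lay nearer to 0 than -0.10, and rescaling moved the median of all forms from -0.10 to 0.00. What lay behind the changes with single libraries left out was not tested.

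The labels number replicates in each group without tying numbers across groups. Deviations of same-numbered prediabetic and 2-week libraries correlated at 0.18, 0.30 and -0.08, and 1 of 3 prediabetic libraries correlated best with its own number. With the number as a replicate block 99 forms had an unadjusted p under 0.05, 97 of them lower, and 0 were called. Replicates 4, 5 and 6 occur only at 2 weeks, so they do not enter the difference in this fit. Its counts therefore also reflect the loss of those libraries and do not show what the block alone changes. Depth is unknown, so the precision of low forms cannot be given beyond the spread between libraries.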

Other observations

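Entries for loci of the same mature sequence were not always filled alike. miR-218a-5p at the locus listed second was at 24.02 RPM in prediabetic replicate 1 and 29.22 RPM in 2-week replicate 6, while the locus listed first was at 0 in both of these libraries. In the other 7 libraries the loci lay close together, such as 45.5 and 42.6 RPM in prediabetic replicate 2. The form of miR-10b-5p marked -2 was at 142 RPM in prediabetic replicate 2 and at 15.6 to 35.5 RPM in the other 8 libraries. miR-182, which is encoded beside miR-183, was at 67.2, 156 and 150 RPM in prediabetes and at 58.7 to 125 RPM at 2 weeks, and miR-183-5p at 20.6 ± 9.25 and 12.7 ± 3.55 RPM (SD, n = 3 and 6).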
